A study of Mus musculus with 12 samples.

Results

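Livers of GR knockout mice given an adeno-associated virus that carries human glucocorticoid receptor beta (AAV-hGRB) were compared with livers of the same genotype given PBS. The comparison takes in all arrays titled with these treatments, 4 of each, which makes 8 of the 12 arrays of the series. Its members are the genes with a probe well above background on at least 4 of these 8 arrays. By that rule 18187 of the 28782 gene names on the array were tested, read through 25595 of 41174 probes, and the other 10595 genes were not tested.

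All groups came from male C57BL/6 mice aged 3 months that carry the liver GR knockout, so the PBS animals lack the receptor too, per the labels. The 4 AAV-GFP arrays, which hold livers given the same kind of vector with green fluorescent protein as cargo, stand beside as values. Each liver RNA was hybridised alone to a 1-colour Agilent array. Samples are numbered within a group, and no label ties a number to a separate animal, so the p-values speak only for the spread among the samples at hand. Not given in the sources used here are the vector's dose and promoter, the time after injection and the way the knockout was made. The PBS mice received no virus, so the vector and its cargo cannot be told apart in AAV-hGRB against PBS.

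Levels are log2 processed intensities minus the array's 75th percentile, so that 0 is the signal of that percentile and a difference of 1 is 2-fold. The 8 arrays correlated with each other at 0.945 to 0.985 across probes, with 23012 to 27341 probes well above background. The 13 hepatocyte markers tested, Alb and Apoa1 among them, had a mean level of 7.58 on the AAV-hGRB arrays and 7.71 on the PBS arrays, far above the 75th percentile. The probe for Nr3c1, the gene of GR, read 0.49, 0.27, 0.58 and 0.28 on AAV-hGRB replicates 1 to 4 and 0.14, 0.43, 0.40 and 0.49 on PBS replicates 1 to 4. All 12 arrays carry the knockout label, so there is no intact receptor to set this against, and whether the probe lies in the deleted part is not known here. The human cargo was not analysed here. PBS replicate 1 was well below the other PBS arrays for markers of Kupffer cells, T and NK cells, B cells, dendritic cells and stellate cells, and among them for neutrophils, erythroid cells and endothelial cells. Its mean level was 0.90 for Kupffer cell and macrophage markers, where the other PBS arrays read 1.84 to 1.93.

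GR beta is a splice form of the glucocorticoid receptor whose altered C-terminus does not bind glucocorticoids, and it is known as an inhibitor of the hormone-binding form and as a regulator of genes in its own right. Interferons are the signals of antiviral defence. Type I interferon acts through a complex of transcription factors that binds the interferon-stimulated response element in promoters and switches on genes that sense, degrade or trap viral RNA.

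Most of the genes of lowest p above PBS were of this antiviral set. Isg15 and Trim30a are among the 12 of lowest p, and Ifit1 is a gene of the set outside them. The promoters of these 3 genes are shown because they carry the response element's core. Each is the 150 bases before the annotated start in RefSeq (GRCm38.p6), read 5′ to 3′ on the gene's strand, with matches to the core (GAAA and GAAA spaced by any 2 bases, on either strand) in capitals, overlapping matches joined. Ifit1 lies at chr19:34640739-34640888 on the plus strand, Isg15 at chr4:156200819-156200968 and Trim30a at chr7:104465194-104465343, both on the minus strand.
Ifit1: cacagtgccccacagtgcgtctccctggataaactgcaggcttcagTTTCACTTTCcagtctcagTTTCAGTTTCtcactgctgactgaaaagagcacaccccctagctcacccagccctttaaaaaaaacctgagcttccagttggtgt
Isg15: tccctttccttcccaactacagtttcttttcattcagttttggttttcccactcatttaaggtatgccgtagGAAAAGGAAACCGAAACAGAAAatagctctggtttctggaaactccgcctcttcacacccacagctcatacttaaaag
Trim30a: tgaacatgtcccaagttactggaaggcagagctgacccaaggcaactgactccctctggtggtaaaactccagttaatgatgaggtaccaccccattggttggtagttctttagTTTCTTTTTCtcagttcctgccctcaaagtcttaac
The Ifit1 promoter holds 2 matches, which begin 104 and 85 bases before the start. Isg15 has 3 overlapping matches, the first beginning 78 and the last 66 bases before it, and Trim30a has 1, at 36 bases. In the full window of 250 bases before to 50 after the start, 1079 of 27025 mouse genes (3.99%) held this motif. Of the 39 interferon-induced genes tested, 28 had a promoter in the table and 17 of these (60.7%) held it. Ddx58, another named gene with a match, has it past the start, and that sequence is not printed. The glucocorticoid motif (ACA and TGT spaced by any 3 bases) was in 2 of the 28 (7.14%) and in 7.9% of all genes. Such a match describes the letters of the window and shows no binding.

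No single probe passed the test. With limma and Benjamini-Hochberg adjustment at 0.05, 0 of 25595 probes (0%) were called higher and 0 lower in AAV-hGRB, and the lowest adjusted p was 0.09. At an unadjusted p under 0.01 there were 217 probes higher and 104 lower, where 256 in all would be below that value with no difference. At an unadjusted p under 0.05 there were 1512, where 1280 would be. At an unadjusted p under 0.001 there were 48 higher and 11 lower, where 26 would be. The median change of all genes tested was -0.08, and 39.7% of genes were above 0. The median standard error of a change was 0.30. In the plot of changes against p, the interferon-induced genes lie on the right-hand side.

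**Figure D1:**
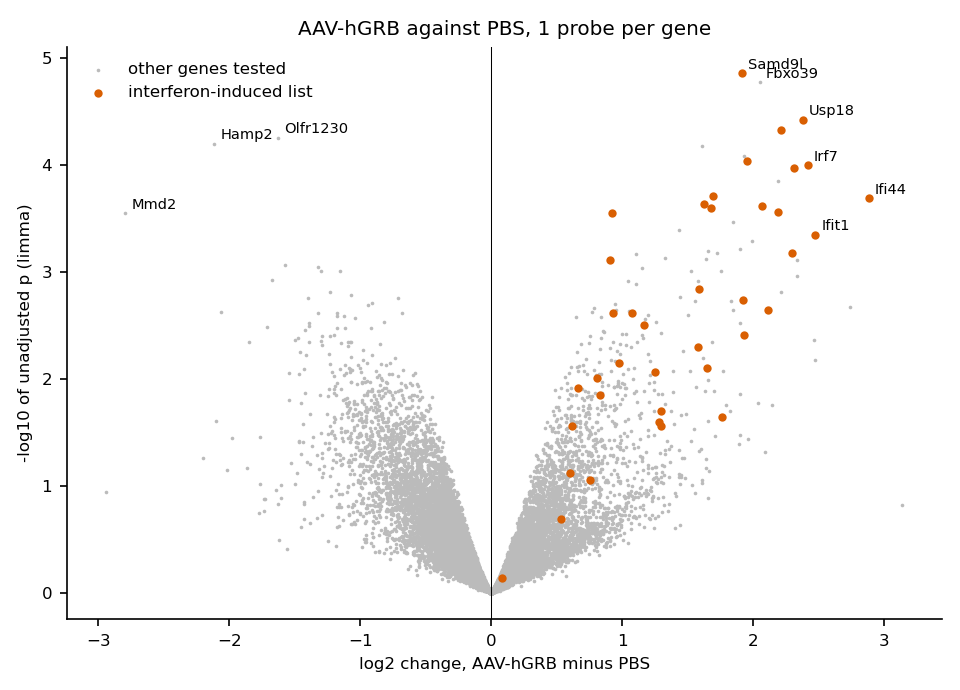
Each point is a gene, with the log2 change of AAV-hGRB against PBS on the x axis and -log10 of the unadjusted limma p on the y axis, and the 39 interferon-induced genes tested are in orange. All 39 lie to the right of 0, between 0.08 and 2.88, while the 18187 genes tested have a median of -0.08.

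The setting mattered for these calls. When limma weighted each array by its fit, 71 probes were called higher and 15 lower, and 23 of the 71 belong to genes of the interferon-induced list. That fit gave AAV-GFP replicate 3 a weight of 0.15 and PBS replicate 2 a weight of 3.51. Leaving out AAV-hGRB replicate 4 called 4 probes higher, Samd9l among them with an adjusted p of 0.04. In the other 22 of 24 alternative fits no probe was called. The counts at an unadjusted p under 0.01 moved with single libraries. They were 338 higher and 170 lower without AAV-GFP replicate 3, and 113 and 61 without AAV-hGRB replicate 2. The lower count was 32 without AAV-hGRB replicate 3, 51 without PBS replicate 1, 157 without PBS replicate 3 and 317 without PBS replicate 4.

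The interferon-induced genes stood higher in AAV-hGRB as a group. Of 42 genes listed, 40 are on the array and 39 were tested. Oas1g, Xaf1 and Herc6 were not among them. The list was chosen with earlier results of these data known, so the counts below describe it and are no test. The change was above 0 in all 39, and its median was 1.59 (3.00-fold), against -0.08 over all genes. None passed the adjusted threshold, 28 had an unadjusted p under 0.01, 27 were over 2-fold and 10 over 4-fold. In 28 of the 39 (71.8%) every AAV-hGRB array lay above every PBS array, which was so for 314 of all 18187 genes (1.73%). The mean level of the list was 1.84, 3.02, 2.82 and 1.85 on AAV-hGRB replicates 1 to 4, and 0.52, 1.01, 0.93 and 1.06 on the PBS replicates. The 2 groups do not overlap, and the AAV-hGRB arrays fall into a higher pair, replicates 2 and 3, and a lower pair, replicates 1 and 4. In 38 of the 39 genes the highest AAV-hGRB array was replicate 2 or 3.

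Irf7, the transcription factor that amplifies interferon production, had levels of 1.32, 3.01, 3.73 and 1.91 on AAV-hGRB replicates 1 to 4, and of 0.17, 0.17, -0.30 and 0.27 on PBS. The lowest AAV-hGRB array was more than 1 log2 unit above the highest PBS array. The change was 2.41 ± 0.43 (SE; 5.33-fold; adjusted p = 0.18 in limma), and its probe lies at chr7:137682028-137682378 of the mouse build mm7. The factors that carry the interferon signal differed less. Irf9 stood 0.91 ± 0.20 higher and did not overlap between groups. Stat2 overlapped, with a change of 0.75 ± 0.41.

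Usp18, the protease that strips the Isg15 modifier and dampens the interferon receptor, read 1.85, 3.67, 3.50 and 2.52 on the AAV-hGRB arrays and 0.45, 0.73, 0.15 and 0.71 on PBS. No array of either group came near the other, and the change was 2.38 ± 0.38 (5.19-fold; adjusted p = 0.16). Isg15, the ubiquitin-like modifier itself, read 3.54, 5.42, 4.81 and 3.58 against 1.57, 1.95, 2.09 and 2.52. Its change was 2.31 ± 0.41 (4.95-fold; adjusted p = 0.18). The promoter with 3 matches printed above is that of Isg15. The array design places its probe on mm7 chromosome 17, while RefSeq has the gene on chromosome 4, so the probe's identity rests on the accession alone.

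Among the sensors of viral RNA, Ddx58, which codes for RIG-I, read 1.94, 2.78, 1.93 and 1.5 in AAV-hGRB and -0.17, 0.21, 0.76 and 0.58 in PBS. The change was 1.70 ± 0.32 (3.24-fold; adjusted p = 0.26), and 4 probes of this gene gave changes of 0.79 to 1.91. The groups were apart for Ddx58 and for Dhx58, the regulator LGP2, which stood 1.59 ± 0.39 higher. They overlapped for Ifih1, the sensor MDA5, at 0.83 ± 0.29, and for Zbp1, a sensor of Z-form nucleic acid, at 1.30 ± 0.52. Eif2ak2, the kinase PKR, stood 0.93 ± 0.24 higher with no overlap.

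Among the effectors, Ifit1, which binds foreign RNA caps, read 1.67, 4.01, 3.09 and 1.41 in AAV-hGRB and -0.65, 0.06, 0.06 and 0.81 in PBS. Its change was 2.47 ± 0.52 (5.56-fold; adjusted p = 0.37). Both groups spread widely here, and the lowest AAV-hGRB array is still above the highest PBS array. The related Ifit2 and Ifit3 stood 1.68 ± 0.33 and 1.92 ± 0.49 higher. Ifi44, an interferon-induced protein of the cytoplasm, had the largest change of the list, 2.88 ± 0.55 (7.37-fold; adjusted p = 0.26). Its levels were 1.13, 3.38, 3.03 and 0.82 against -1.59, -0.71, -0.68 and -0.19. Here AAV-hGRB replicates 2 and 3 lay well above replicates 1 and 4, and all 4 above PBS.

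Samd9l, an inhibitor of viral replication, had the lowest p of the named genes. It read -2.19, -1.18, -1.52 and -2.45 in AAV-hGRB and -3.85, -3.42, -3.92 and -3.79 in PBS, where 3 of 4 arrays were well above background. The PBS arrays lie close together and well below all AAV-hGRB arrays. The change was 1.91 ± 0.28 (3.77-fold; adjusted p = 0.15), and with another background correction (normexp) it was 0.85. Trim30a, a RING-finger protein that restrains inflammatory signalling, had levels of 0.89, 2.15, 1.36 and 0.51 against -1.41, -1.21, -0.57 and -0.75. Its change was 2.21 ± 0.36 (4.63-fold; adjusted p = 0.16), and a second probe gave 1.24. The single-match promoter shown above belongs to it.

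Members of the oligoadenylate synthetase family also stood above PBS in value. The family is named after enzymes whose product activates the nuclease RNase L, and not every member need have that activity. Oasl1 stood 1.63 ± 0.32 higher, Oasl2 2.19 ± 0.43, Oas1a 2.29 ± 0.51 and Oas2 1.76 ± 0.67, each without overlap between groups. Oas3 overlapped, at 1.29 ± 0.48, and was well above background on 3 AAV-hGRB and 2 PBS arrays. Oas1c, a paralog outside the list, stood 1.93 ± 0.33 higher (adjusted p = 0.18). Members of this family share sequence, so probes of the 1a and 1c copies may read related transcripts. Of the Mx proteins, GTPases that trap viral particles, Mx2 was higher by 1.57 ± 0.46 without overlap. Mx1 overlapped, at 1.65 ± 0.52. Rsad2, the antiviral enzyme viperin, also overlapped, at 1.28 ± 0.50, because PBS replicate 4 read 1.63.

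Cmpk2, a mitochondrial nucleotide kinase next to Rsad2, stood 2.06 ± 0.40 higher (4.18-fold; adjusted p = 0.26), and Rtp4, a chaperone of membrane receptors, 1.95 ± 0.34 (3.87-fold; adjusted p = 0.18). Rtp4 was bright in every liver, at 4.55, 5.86, 5.65 and 4.32 in AAV-hGRB and 2.79, 3.56, 3.07 and 3.15 in PBS. Fbxo39, an F-box protein that is not on the list, also lay far above PBS. It read 1.12, 2.50, 2.00 and 1.24 against -0.77, -0.29, -0.24 and -0.05, a change of 2.05 ± 0.30 (4.14-fold; adjusted p = 0.15). Of the 12 named genes of lowest p above PBS, 10 belong to the interferon-induced list and the others are Fbxo39 and Oas1c. As the list was chosen with earlier results of these data known, that count describes these genes only. A probe of BC013672, a clone name chosen here after its values were seen, gave the lowest adjusted p of all, 0.09, with a change of 3.38, and the gene's brightest probe gave 1.99.

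The rest of the list spread widely. Ifi27l2a and the ADP-ribosyltransferase Parp14 stood 1.93 ± 0.54 and 1.07 ± 0.28 higher without overlap, and Lgals3bp, a secreted glycoprotein, overlapped at 0.81 ± 0.26. Adar, the RNA-editing enzyme, stood 0.92 ± 0.18 higher, Bst2, the tetherin of virus particles, 0.97 ± 0.30, and Ifitm3, a block to viral entry, 0.66 ± 0.22, all without overlap. The chemokine Cxcl10 stood 1.25 ± 0.40 higher without overlap. Genes that interferon gamma also induces were mixed: the GTPases Gbp3 and Igtp stood 2.11 ± 0.55 and 1.16 ± 0.32 higher without overlap, while Gbp2 (0.53 ± 0.39) and Iigp1 (0.60 ± 0.31) overlapped. The smallest change was that of Isg20, an RNA exonuclease, at 0.08 ± 0.22, with AAV-hGRB arrays from 0.09 to 0.38 and PBS arrays from -0.09 to 0.28.

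**Figure D2:**
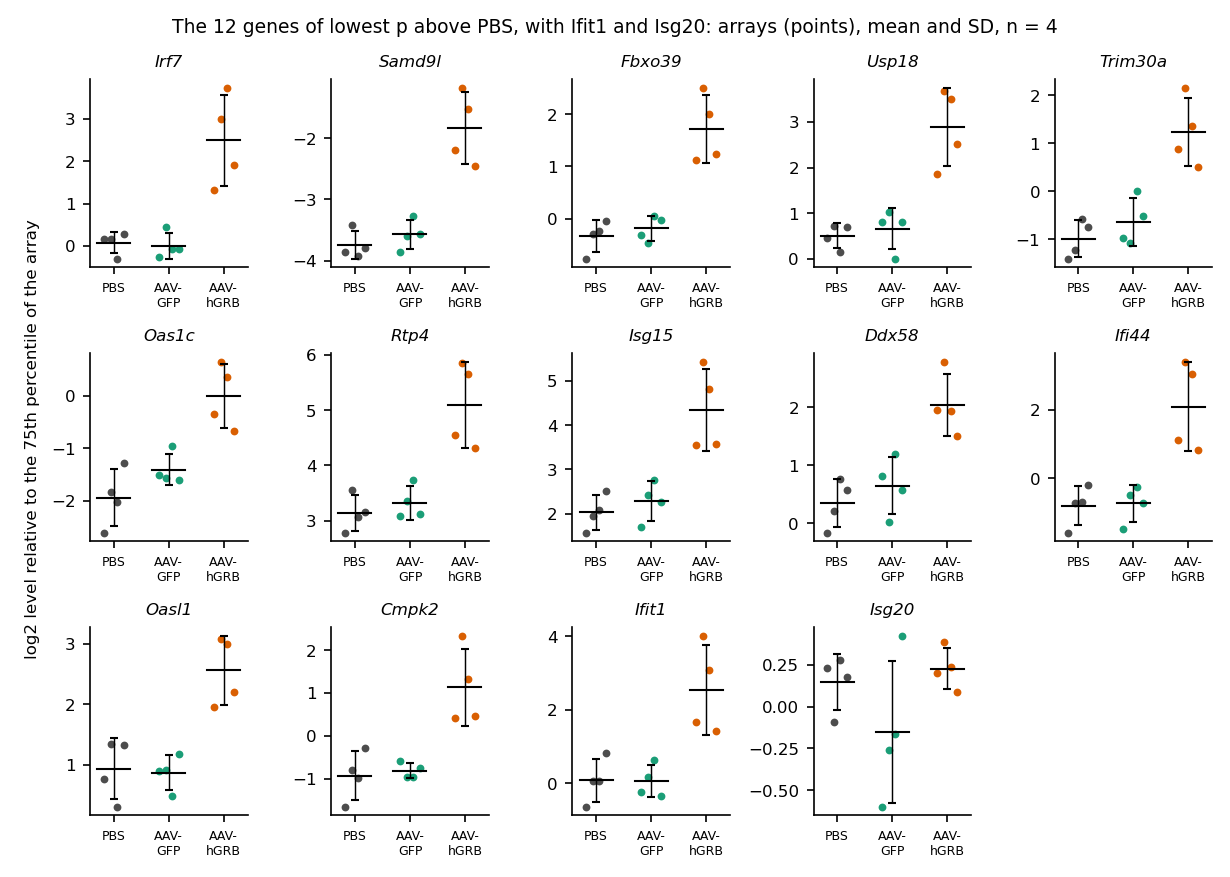
Each panel shows the log2 level relative to the array's 75th percentile (y axis) of a gene on the 4 PBS, 4 AAV-GFP and 4 AAV-hGRB arrays, with the mean as a bar and the SD as whiskers. In the 12 genes of lowest p and Ifit1 all AAV-hGRB points lie above all PBS points, and Isg20 differs by 0.08.

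The livers given AAV-GFP lay near PBS for these genes. The mean level of the list was 0.65, 0.91, 1.32 and 0.95 on AAV-GFP replicates 1 to 4, which lies below every AAV-hGRB array and across the PBS range. AAV-GFP minus PBS had a median of 0.12 over the 39 genes and ran from -0.75 to 0.73, with 0 genes over 2-fold. Against AAV-GFP, AAV-hGRB had a median of 1.45. For Irf7 AAV-GFP minus PBS was -0.07, for Usp18 0.15, for Isg15 0.25 and for Ifit1 -0.03. Both comparisons share the PBS or AAV-hGRB arrays, and they are set side by side as values. No probe was called in either of them: the lowest adjusted p was 1.00 for AAV-GFP against PBS, with 53 probes at an unadjusted p under 0.01, and 0.28 for AAV-hGRB against AAV-GFP, with 206.

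Arrays lay on slides, and 2 slides each held 1 AAV-hGRB and 1 PBS array. Within the slide of AAV-hGRB replicate 1 and PBS replicate 4 the list's median was 0.90, and within the slide of the third replicates it was 1.71. With slide as a fixed block it was 1.33. With normexp background correction it was 1.06. All 12 named genes of lowest p kept a positive sign in every alternative that gave them a value and within both slides.

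Antigen presentation by MHC class I, which interferon also induces, differed less. Of 14 genes tested 13 were above 0, with a median of 0.39 (1.31-fold), 0 called and 0 whose groups did not overlap. Over all genes 1.73% were above PBS without overlap and 2.83% below, so 0 of 14 says little. Psmb8, an immunoproteasome subunit, read 4.09, 5.02, 4.97 and 3.98 in AAV-hGRB and 3.22, 3.91, 4.09 and 4.09 in PBS. Its change was 0.69 ± 0.29. Tap1, the peptide transporter, stood 0.78 ± 0.42 higher, and Psmb9 0.61 ± 0.34. The list's median was 0.25 without PBS replicate 1, 0.25 with normexp and 0.20 with slide as a block. It was -0.10 within the slide of AAV-hGRB replicate 1 and 0.57 within the slide of the third replicates. AAV-hGRB replicates 2 and 3 were again the highest for Psmb8 and Psmb9.

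A second group with values above PBS was the targets of p53, the factor that halts the cell cycle after DNA damage. Of 24 genes tested 18 were above 0, with a median of 0.50 (1.41-fold). In 5 genes (20.8%) all AAV-hGRB arrays were above all PBS arrays, against 1.73% of all genes, and none passed the adjusted threshold. One of the 5 is Eda2r, which passed the filter on low values through the AAV-hGRB arrays alone. The mean level of the list was 0.70, 1.20, 1.34 and 0.93 in AAV-hGRB and 0.13, 0.36, 0.74 and 0.68 in PBS, so the groups overlapped through AAV-hGRB replicate 1 and PBS replicate 3. Phlda3, an inhibitor of the kinase Akt, read 1.15, 2.19, 2.70 and 1.89 against -0.30, -0.05, 0.47 and 0.42. Its change was 1.85 ± 0.38 (3.60-fold; adjusted p = 0.30), and AAV-GFP minus PBS was 0.36. Eda2r, a receptor of the tumour necrosis factor family, was well above background on all 4 AAV-hGRB arrays and on 0 of the PBS arrays. It read 6.67-fold higher. This fold holds for these processed intensities only. Its PBS side rests on readings not well above background, so it is an estimate and not a lower bound. The fitted change of Eda2r was 2.74 (adjusted p = 0.55 in limma), and it was 0.77 with normexp background correction and 1.5 with slide as a block. Like Olfr1230 below, in the other direction, it passed the filter through the arrays of a single group, where it had to be bright.

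Cdkn1a, the cell cycle inhibitor p21, read -0.65, 0.19, 0.24 and 0.38 in AAV-hGRB and -2.0, -2.12, -1.83 and -0.35 in PBS. Replicate 4 of PBS lies among the AAV-hGRB arrays, and the change was 1.61 ± 0.49 (3.06-fold; adjusted p = 0.71). Ddit4l, an inhibitor of mTOR signalling, stood 0.86 ± 0.24 higher without overlap. Psrc1, a microtubule regulator, stood 1.70 ± 0.58 higher with overlap, and its 3 probes ranged from 0.08 to 1.70. Trp53inp1, a stress protein, stood 0.85 ± 0.31 higher with overlap. The list's median was -0.25 within the slide of AAV-hGRB replicate 1 and PBS replicate 4 and 0.60 within that of the third replicates. It was 0.28 with slide as a block and 0.43 without PBS replicate 1.

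Of the genes below PBS, Hamp2 had the lowest p among the named genes well above background on all 8 arrays. Hamp2 is the second hepcidin gene, next to the gene of the iron hormone. It read 2.72, 2.47, 2.42 and 1.36 in AAV-hGRB and 4.49, 4.12, 4.15 and 4.67 in PBS, a change of -2.11 ± 0.36 (4.33-fold lower; adjusted p = 0.16). The AAV-GFP arrays read 3.60, 3.46, 3.78 and 2.32, all below PBS and with replicate 4 inside the AAV-hGRB range, and AAV-GFP minus PBS was -1.06. Hamp, hepcidin itself, read 7.99, 7.33, 7.14 and 7.91 against 7.59, 8.14, 9.22 and 8.70. The groups overlap, and the change was -0.82 ± 0.39. The Hamp2 probe lies at chr7:27862281-27862340 and the Hamp probe at chr7:27882251-27882310 of mm7. The genes are near copies, and how far each probe reads the other transcript was not tested.

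Mmd2, a membrane protein of the adiponectin receptor family, had the largest difference of the named lower genes on these intensities, though not with normexp, where it was at -1.15 and Hamp2 at -2.15. It read -3.93, -4.30, -3.55 and -4.05 in AAV-hGRB, and -2.35, -1.37, -1.57 and 0.65 in PBS. The change was -2.79 ± 0.56 (6.94-fold lower; adjusted p = 0.26). AAV-GFP minus PBS was -1.95 for the same probe. Sybu, which codes for the transport protein syntabulin, had a change of -2.06 ± 0.54 with AAV-GFP minus PBS also at -2.06, and its AAV-hGRB and PBS arrays overlapped. Gnat1, the rod transducin subunit, stood 1.68 log2 units lower (-1.68 ± 0.40), and AAV-GFP minus PBS was -0.92.

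The other named genes below PBS had mean levels from -5.38 for Olfr1230 to -1.01 for Plce1 in AAV-hGRB. The olfactory receptor Olfr1230 was well above background on 4 PBS arrays and on 0 AAV-hGRB arrays. It read 3.09-fold lower, with an adjusted p of 0.16 in limma. That fold is an estimate that rests on AAV-hGRB readings not well above background. Ephx3, an epoxide hydrolase, differed by -1.33 ± 0.30, Pcyt1b, an enzyme of phosphatidylcholine synthesis, by -1.30 ± 0.30, and Sncg, gamma-synuclein, by -1.16 ± 0.27. They were well above background on 1, 2 and 2 of the AAV-hGRB arrays. Olfr100 stood at -1.40 ± 0.35, Pcp4, a calmodulin regulator, at -1.07 ± 0.27, Gapdhs, the sperm form of the glycolytic enzyme, at -0.91 ± 0.23, and Plce1, a phospholipase C, at -0.71 ± 0.18. A second probe gave -0.28 for Gapdhs, -0.32 for Pcyt1b and -0.84 for Gnat1. The 3 probes of Plce1 ran from -0.71 to -0.04. AAV-GFP minus PBS was -1.25 for Ephx3, -1.07 for Olfr1230, -0.77 for Pcyt1b and -0.72 for Pcp4. It was -0.44 for Plce1, -0.36 for Sncg, -0.34 for Olfr100 and -0.20 for Gapdhs. In 11 of the 12 named lower genes every AAV-hGRB array lay below every PBS array, which held for 514 of all 18187 genes (2.83%). These genes were picked by their low p, so that count describes them only. With normexp background correction Gnat1 was at -1.11, Olfr100 at -0.51, Pcp4 at -0.47 and Plce1 at -0.39, while Ephx3 and Gapdhs were at -0.04, Olfr1230 at -0.08, Sncg at -0.10, Sybu at -0.11 and Pcyt1b at -0.15. None of the 9 lower genes with a promoter in the table held the response element's core, which 3.99% of all genes held. Among the 12 genes of lowest p above PBS, 10 had a promoter there and 4 of these (40%) held it.

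**Figure D3:**
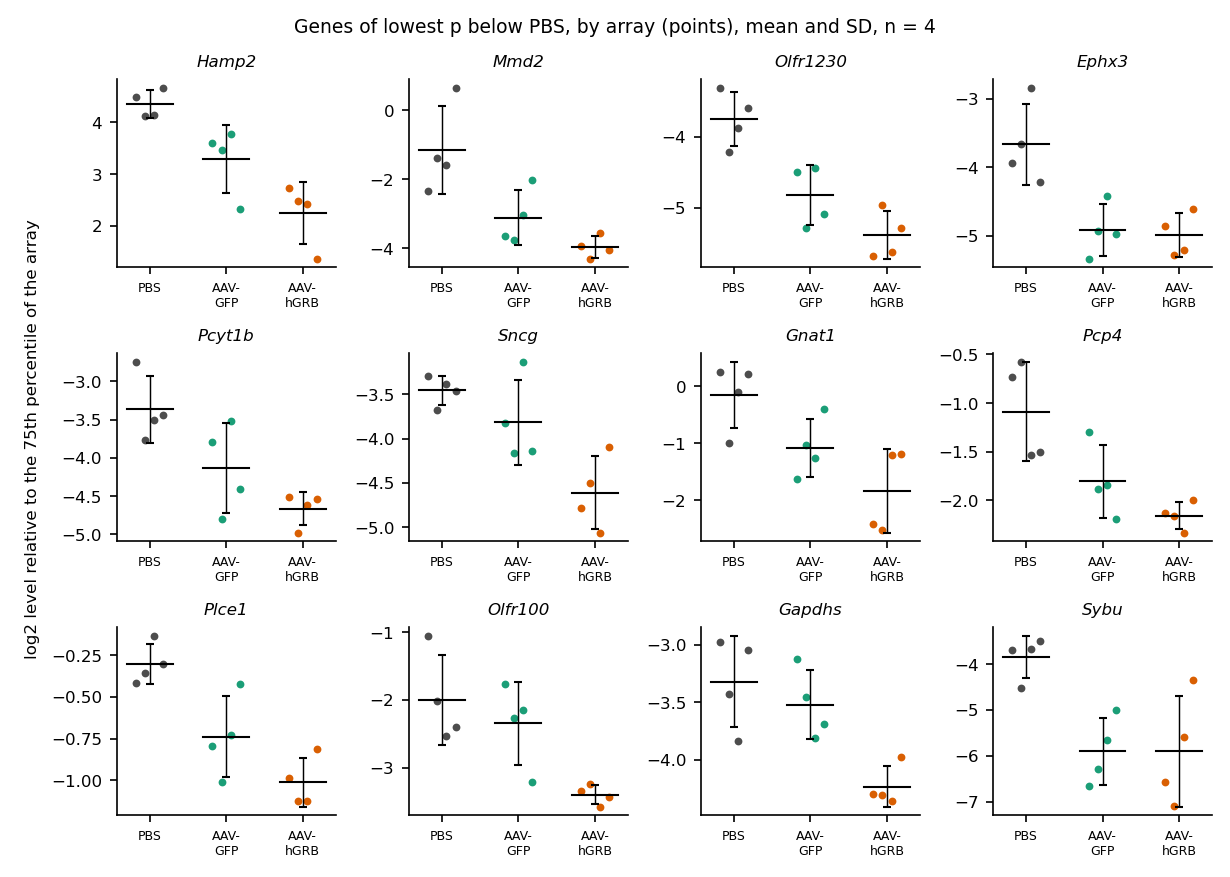
Each panel shows the log2 level relative to the array's 75th percentile (y axis) of a gene on the 4 PBS, 4 AAV-GFP and 4 AAV-hGRB arrays, with the mean as a bar and the SD as whiskers. The AAV-hGRB points lie below the PBS points in 11 of the 12 genes and overlap in Sybu, and several AAV-GFP groups sit between or at the AAV-hGRB level.

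Genes that glucocorticoids induce lay on both sides of PBS in these knockout livers. Of 23 tested 10 were above 0, where 39.7% of all genes were, with a median of -0.02 and 0 called. In 1 (4.35%) all AAV-hGRB arrays were above all PBS arrays, against 1.73% of all genes. That gene was Gadd45b, a stress-response gene, at 0.81 ± 0.38, and AAV-GFP minus PBS was 0.79 for it. Fkbp5, the chaperone that glucocorticoids induce in many tissues, read -0.41, -1.67, -1.77 and -2.30 in AAV-hGRB and -1.03, -2.03, -1.36 and -2.69 in PBS. Its change of 0.24 ± 0.62 is within the spread of either group. Tsc22d3, the anti-inflammatory protein GILZ, was at 0.18 ± 0.33 and the clock gene Per1 at -0.21 ± 0.55. The gluconeogenic enzymes Pck1 and G6pc were at 0.10 ± 0.27 and -0.08 ± 0.57. With slide as a block Fkbp5 was at 0.90, Per1 at 0.56 and G6pc at -1.15. The sign of these 5 changes, and of Nr3c1 at 0.04 ± 0.17, turned under at least 1 alternative fit. Nr3c2, the mineralocorticoid receptor, stood at -0.71 ± 0.30, and AAV-GFP minus PBS was -0.71 as well.

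The medians of the metabolic lists ran from -0.29 to -0.01, around the -0.08 of all genes. Of 27 genes of gluconeogenesis and amino acid breakdown 4 were above 0, where 39.7% of all genes were, with a median of -0.29. In 5 (18.5%) all AAV-hGRB arrays were below all PBS arrays, against 2.83% of all genes, and in 1 (3.70%) all were above, against 1.73%. AAV-GFP minus PBS had a median of -0.01 over this list. The urea cycle enzyme Asl read 4.87, 4.94, 5.18 and 5.23 in AAV-hGRB and 6.28, 5.46, 5.48 and 6.03 in PBS, a change of -0.76 ± 0.24 (adjusted p = 0.77). The transaminases Gpt2 and Gpt, which interconvert alanine and pyruvate, stood at -0.62 ± 0.21 and -0.65 ± 0.25, both without overlap. Aass, the first enzyme of lysine breakdown, stood at -0.43 ± 0.21, and at -0.25 without PBS replicate 4. Unlike the list's median, AAV-GFP minus PBS was -0.43 for Asl, -0.36 for Gpt2 and -0.34 for Gpt, and it was 0.07 for Aass. The list's median was -0.10 without PBS replicate 4, -0.49 without PBS replicate 1, -0.45 with slide as a block, -0.82 in the slide of AAV-hGRB replicate 1 and -0.26 in that of the third replicates.

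Fatty acid oxidation genes and targets of PPARA, the lipid-sensing receptor, had a median of -0.24, with 6 of 29 above 0. Acaa1b, a peroxisomal thiolase, stood at -0.60 ± 0.20 with overlap, and at 0.14 within the slide of AAV-hGRB replicate 1. Glycolysis and lipogenesis had a median of -0.25, with 7 of 25 above 0. Of the 25, 0 were without overlap, against 2.83% of all genes below PBS and 1.73% above. Pklr, liver pyruvate kinase, stood at -0.60 ± 0.25, and Fads2, a desaturase, at -0.52 ± 0.23. AAV-GFP minus PBS was -0.54 for Pklr and -0.10 for Fads2, with a median of 0.06 over this list. The median of glycolysis and lipogenesis was 0.04 within the slide of AAV-hGRB replicate 1 and -0.54 within that of the third replicates. Cholesterol synthesis and uptake had a median of -0.14, which ran from -0.27 to -0.01 with an array left out. Bile acid genes, with 10 above and 11 below 0, had a median of -0.07 and drug metabolism genes, with 17 on each side, one of -0.01. These medians turned sign in 4 alternatives each. With quantile scaling, which takes the median of all genes from -0.08 to -0.03, the medians of gluconeogenesis and amino acid breakdown, fatty acid oxidation, and glycolysis and lipogenesis were -0.17, -0.16 and -0.11.

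Genes with higher expression in female than in male mouse liver had a median of -0.63 over 15 tested, 2 of them above 0. Of the 15, 0 were without overlap, against 2.83% of all genes below PBS and 1.73% above. AAV-GFP minus PBS had a median of -0.64 over the 15 genes. The transporter Slc22a26 read 0.11, -1.66, -1.71 and -0.92 in AAV-hGRB and 1.24, -0.57, 1.28 and 0.71 in PBS. Its change was -1.71 ± 0.47, and AAV-GFP minus PBS was -1.23. Ntrk2, a neurotrophin receptor, stood at -1.76 ± 0.74, and AAV-GFP minus PBS was -2.23. Male-biased genes had a median of -0.01, which was -0.14 without PBS replicate 1 and turned sign in 9 alternatives. The female-biased median was -0.39 without PBS replicate 1, -0.37 without AAV-hGRB replicate 2 and -0.25 with slide as a block.

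Cell cycle genes had a median of 0.33, with 19 of 23 above 0. Of the 23, 0 were without overlap, against 1.73% of all genes above PBS and 2.83% below. AAV-GFP minus PBS had a median of 0.35 over the list. Plk1, a mitotic kinase, read -2.09, -1.61, -1.71 and -2.53 against -3.32, -3.04, -3.21 and -2.37 in PBS, and Mki67, the proliferation marker, stood 0.87 ± 0.32 higher. For these genes AAV-GFP minus PBS was 0.77 and 0.70. The list's median was -0.23 within the slide of AAV-hGRB replicate 1, 0.81 within that of the third replicates and 0.15 without PBS replicate 1.

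**Figure D4:**
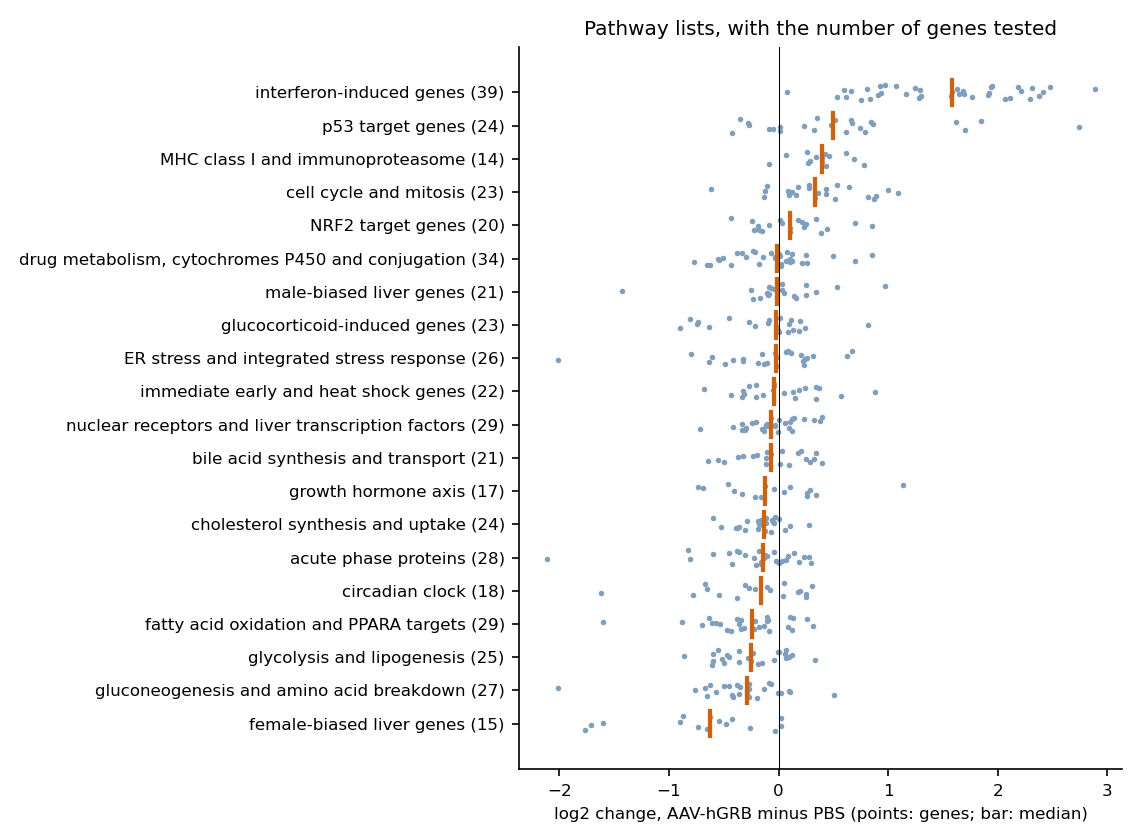
Each row is a gene list with its number of genes tested, each point a gene's log2 change of AAV-hGRB against PBS (x axis), and the orange bar the median. The interferon-induced list has a median of 1.59 and every other list shown lies between -0.63 and 0.50.

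Markers of blood and resident immune cells were measured in the same RNA, and in whole liver fewer cells of a type and less RNA per cell cannot be told apart. All 16 Kupffer cell and macrophage markers tested were above 0, with a median of 0.53 and 0 called. Of the 16, 0 were without overlap, against 1.73% of all genes above PBS and 2.83% below. The mean level of the markers was 1.67 to 2.55 in AAV-hGRB and 0.90 to 1.93 in PBS. Marco, a scavenger receptor, stood at 0.89 ± 0.49, Clec4f, which defines Kupffer cells, at 0.68 ± 0.38 and Cd68 at 0.57 ± 0.30. Without PBS replicate 1 the median was 0.22 and Clec4f was at 0.24. Without AAV-hGRB replicate 3 the median was 0.30. It was 0.11 with slide as a block, -0.47 in the slide of AAV-hGRB replicate 1 and 0.84 in that of the third replicates. For comparison, the interferon-induced median was 1.41 without PBS replicate 1.

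T and NK cell markers had a median of 0.45 over 20 tested, 12 above 0, and 0.11 without PBS replicate 1. Without AAV-hGRB replicate 3 it was 0.24. Their levels were low, with means of -2.24 to -1.60 in AAV-hGRB and -2.88 to -2.02 in PBS. Cd8a, the co-receptor of cytotoxic T cells, read -4.35, -4.17, -3.21 and -4.10 against -5.11, -4.44, -4.82 and -5.33, a change of 0.97 ± 0.33 without overlap. AAV-GFP minus PBS was -0.19 for Cd8a. The chemokine Ccl5 stood 1.07 ± 0.44 higher and the cytotoxic protease Gzmb 1.34 ± 0.58, and Gzmb was at 0.65 without PBS replicate 1. In the other direction Zap70, a kinase of the T cell receptor, stood at -1.05 ± 0.38. The part of these cells in the interferon-induced values was not tested.

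All 9 neutrophil markers tested were below 0, with a median of -0.40 and -0.03 with normexp. AAV-GFP minus PBS had a median of -0.995 for them. Mpo, the granule peroxidase, read -4.17, -3.49, -4.37 and -2.98 against -2.42, -2.98, -2.83 and -2.33, a change of -1.11 ± 0.31 in which AAV-hGRB replicate 4 and PBS replicate 2 met at -2.98. All 5 erythroid markers were below 0 too, with a median of -0.51. B cell and plasma cell markers had a median of -0.22, dendritic cell and MHC class II genes 0.03, cholangiocytes -0.20, stellate cells and fibroblasts 0.04, endothelial cells -0.02 and pancreatic acinar cells -0.39. With normexp B cell and plasma cell markers were at 0.10, pancreatic acinar cells at 0.16 and cholangiocytes at -0.04. Without PBS replicate 1 dendritic cell genes were at -0.09, stellate cells and fibroblasts at -0.19 and pancreatic acinar cells at -0.25. The endothelial median turned sign in 8 alternatives. Adipocyte markers, at -0.58, were 0.90 in the slide of AAV-hGRB replicate 1 and -2.05 in that of the third replicates.

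**Figure D5:**
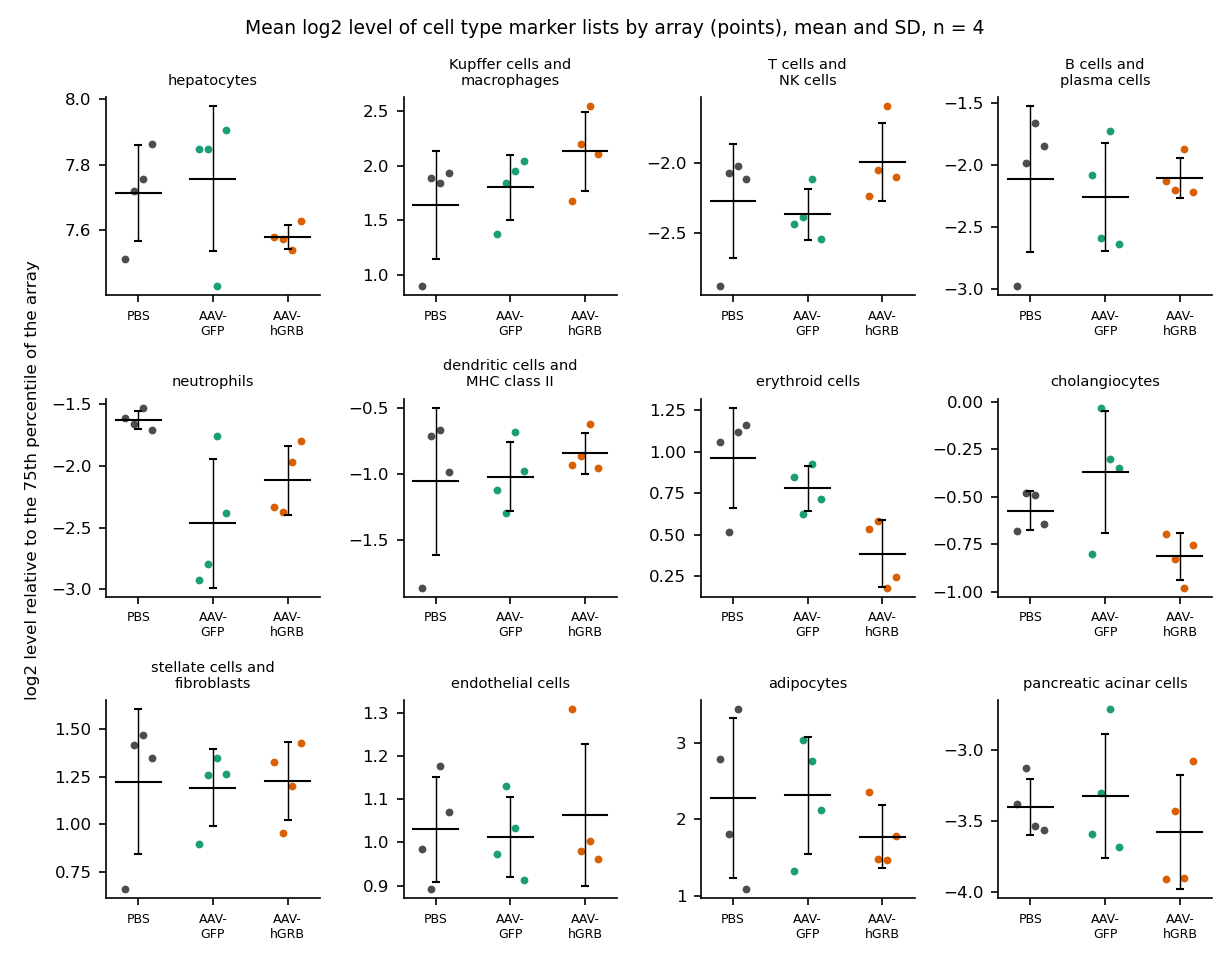
Each panel shows the mean log2 level relative to the array's 75th percentile (y axis) of a cell type's markers on each array of the 3 groups, with the group mean as a bar and the SD as whiskers. PBS replicate 1 is the lowest point for Kupffer cells and macrophages at 0.90 and for T and NK cells at -2.88, and hepatocyte markers lie at 7.54 to 7.63 in AAV-hGRB and 7.51 to 7.86 in PBS.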

How the data were processed

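Liver RNA of the AAV-hGRB and PBS samples, with AAV-GFP beside them, was read on 1-colour Agilent arrays after 500 ng of total RNA was labelled with Cy3, per the labels' protocols. The deposited scanner files give each spot's intensity, not log-transformed. Feature Extraction 9.5.3.1 (9.5 in the submitters' processing notes) subtracted background, detrended the array and gave dim spots a surrogate value, per the file headers. The deposited series matrix holds the same intensity: 540216 of 540216 values equal the scanner files' within a relative 1e-06. Its scale is therefore linear and uncentred, with array medians of 43.9, 50.9, 54.4 and 57.1 for AAV-hGRB replicates 1 to 4, of 67.1, 58.9, 38.9 and 47.9 for PBS, and of 28.4 to 51.7 for AAV-GFP.

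Log2 values of 43379 non-control spots were averaged per probe (245 probes have several spots, 1639 control spots were left out), and the array's 75th percentile was subtracted. Names came through RefSeq accessions: 22951 probes matched by systematic name, 121 by another accession, and 18102 kept the design's name. Probe coordinates are the design's, on mm7. The brightest of a gene's probes stands for it.

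The 12 arrays were fitted together with limma 3.58.1 (R 4.3.3, statmod 1.5.0, data.table at 1.17.8) with 3 groups and 9 residual degrees of freedom, two-sided, adjusted by Benjamini-Hochberg over 25595 probes, with a threshold of 0.05. The AAV-GFP arrays add to the estimate of spread. The fit was tested on simulated data. Named are the 12 genes of lowest p in each direction, since none passed, with clone and predicted names skipped, up to 6 genes of each of 32 lists, and members of the interferon-induced list. A few results that this rule would name are not reported here. The genes and lists were chosen with earlier results of these data known. No list was tested: counts and medians stand beside those of all genes. The number of arrays limits the precision.

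Alternatives were other scalings, background correction, filters, arrays in the fit, array weights, an intensity trend, the slide, the replicate number and each array left out. The replicate numbers of the labels did not pair the samples: deviations from the group means correlated at -0.20, 0.26, -0.29 and 0.11 for replicates 1 to 4.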

Additional observations from a re-analysis of the deposited data

Results flagged for a closer look

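In 154 groups of 4 arrays, 77 genes in both treatments, 4 held an array set apart from the other 3 by Dixon's 95% criterion. By chance about 1 group of 20 would, so 4 of 154 is fewer than that rate gives. All 4 are PBS arrays. Cdkn1a read -0.35 on PBS replicate 4 and -2.12 to -1.83 on the others, and its change was 2.02 without that array. Aass, of lysine breakdown, read 6.22 on PBS replicate 4 and 5.46 to 5.52 on the others. Clec4f, the Kupffer cell lectin, read 2.79 on PBS replicate 1 and 4.48 to 4.56 on the others. Gzmb, the cytotoxic protease, read -5.76 on PBS replicate 1 and -3.12 to -2.83 on the others.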

How the results depend on the processing

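The interferon-induced median, 1.59, stayed above 1 in every fit. It was 1.06 with normexp background correction, 1.36 to 1.78 with an array left out and 1.33 with slide as a fixed block. Within slide 5, that of AAV-hGRB replicate 1 and PBS replicate 4, it was below 1, at 0.90. Within the slide of the third replicates it was 1.71. Both within-slide medians are values with no fit or test. Probes called numbered 0 higher and 0 lower except with array weights (71 and 15) and without AAV-hGRB replicate 4, so that leaving arrays out gave 0 to 4 higher and 0 to 0 lower. At an unadjusted p under 0.01, where the main counts are 217 higher and 104 lower, they were 811 and 797 with array weights, 100 and 13 with normexp and 58 and 46 with slide as a fixed block. The lower count was 162 with quantile scaling and 216 with no filter on dim probes. Leaving arrays out gave 113 to 338 higher and 32 to 317 lower. Of these probes 67.6% were higher, against 65.0% with quantile scaling, 69.1% with median scaling and 35.2% without PBS replicate 4.

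With the replicate number as a block, 0 probes were called, the interferon-induced median was 1.59 and the counts were 243 and 152. The numbers do not pair the samples, and 1 of 4 correlated best with its own number.

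Values were followed through the alternative fits for 77 genes, and not for the other named genes. Within the slides some turned sign, such as Cdkn1a at -0.30 in slide 5, and these are not counted here. In the fits 6 of the 77 genes turned sign. G6pc (-0.083) was -1.15 with slide as a fixed block, 0.031 with quantile scaling and 0.047 with array weights, and ran from -0.567 to 0.237 with an array left out (above 0 without AAV-hGRB replicate 1 or 3 or PBS replicate 2 or 3). Pck1 (0.099) was -0.041 with normexp and -0.12 with slide as a fixed block, and ran from -0.055 (without AAV-hGRB replicate 2) to 0.246. Nr3c1 (0.039) was -0.024 with array weights, and ran from -0.0355 (without PBS replicate 1) to 0.0845, and was -0.02 without AAV-hGRB replicate 3. Per1 (-0.21) was 0.565 with slide as a fixed block, and ran from -0.801 to 0.168 (without PBS replicate 1). Fkbp5 (0.24) was 0.90 with slide as a fixed block, ran from -0.135 (without AAV-hGRB replicate 1) to 0.494, and was -0.062 without PBS replicate 4. Tsc22d3 (0.18) ran from -0.113 (without AAV-hGRB replicate 1) to 0.366. The causes were not tested. Signal near background limits what can be read from the dim lower genes.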
